A study of Homo sapiens with 5 samples.

Results

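Flanking H3K4me1 regions are stretches of chromatin that carry monomethylation of histone H3 at lysine 4 (H3K4me1), hold no peak of acetylation at lysine 27 (H3K27ac), and begin or end within 5 kb of an H3K27ac region. They were studied in VCaP, an established human prostate cancer line that responds to androgens. The members were chosen by measured peak positions. For each mark, overlapping peaks of its 2 libraries were joined into regions, and a region was kept when it held a peak of each library. A kept H3K4me1 region became a member when it touched no H3K27ac peak of either library and its edge lay within 5 kb of a kept H3K27ac region. On the autosomes and chromosome X, 9986 of 84838 kept H3K4me1 regions met this rule (11.8%, exact 95% interval 11.55 to 11.99%), and they covered 8.25 Mb. Of the other kept H3K4me1 regions, 28073 (33.1%) were distant, lying over 5 kb from any kept H3K27ac region and touching no H3K27ac peak. A further 39927 (47.1%) overlapped a kept H3K27ac region, and 6852 (8.08%) overlapped an H3K27ac peak of 1 library only.

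All cells shared one line and one serum-containing medium, and the labels name no treatment and no genetic change. Chromatin fixed with formaldehyde was immunoprecipitated for H3K4me1 (2 libraries) or H3K27ac (2 libraries), and 1 input library, sequenced without immunoprecipitation, is not analysed here. The H3K4me1 lists held 118231 peaks in replicate 1 and 125320 in replicate 2, and the H3K27ac lists held 54763 and 64845. The lists carry positions and names alone, so sequencing depth and peak height are unknown. The labels do not say that replicates are separate cultures, and p-values then measure a spread between samples that may be technical. The values hold for this 1 cell line.

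H3K4me1 is laid down mainly by the MLL3 and MLL4 methyltransferases and is found at enhancers whether or not they are active, and on the flanks of promoters. H3K27ac is laid down by p300 and CBP and marks active enhancers and promoters. Around an active regulatory element the nucleosomes nearest the bound factors tend to carry acetylation, and H3K4me1 often reaches further out. At active promoters trimethylation of lysine 4 takes the place of H3K4me1 close to the start site. In prostate cancer cells such elements are bound by the androgen receptor and FOXA1.

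The number of flanking regions per length of gap was highest under 500 bp, was much lower from there on, and declined slowly up to the 5 kb limit, with no step at it. The median gap between a flanking region and its nearest H3K27ac region was 1580 bp (quartiles 464 and 3090.75 bp, range 0 to 4999 bp). Under 500 bp lay 2624 of the 9986 regions (26.3%). Counted per 100 bp of gap, there were 524.8 regions below 500 bp, 245.2 between 500 and 1000 bp and 191.1 between 1000 and 2000 bp. Between 4000 and 5000 bp the number was 124 regions per 100 bp. Just past the limit, from 5000 to 5500 bp, H3K4me1 regions without an H3K27ac peak still numbered 116.4 per 100 bp, and between 9000 and 10000 bp they numbered 83.4. Since the gap chose the members, these values are a description with no test.

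**Figure D1:**
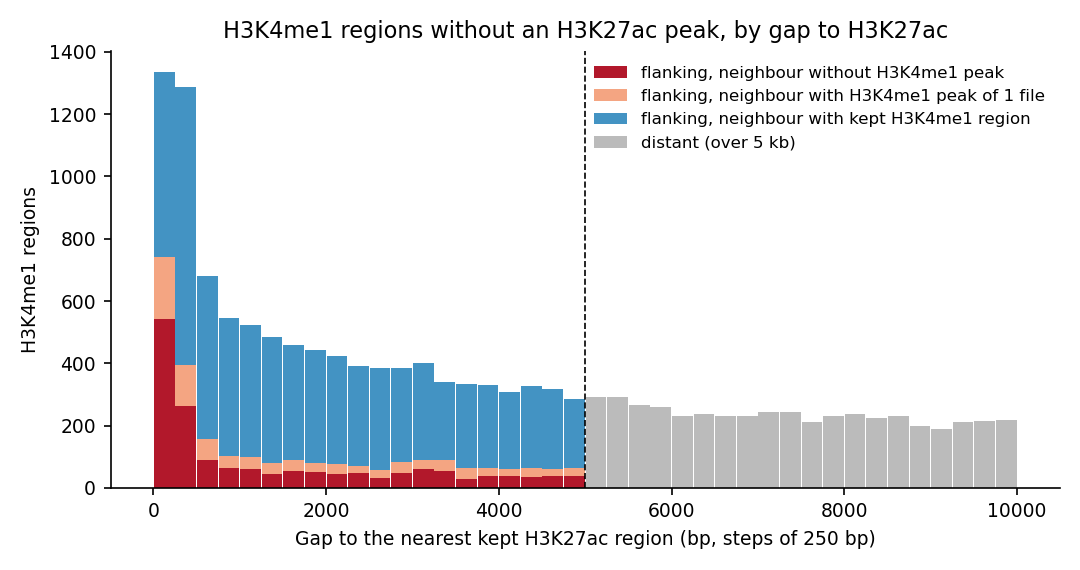
Number of kept H3K4me1 regions without an H3K27ac peak, in steps of 250 bp of the gap to the nearest kept H3K27ac region; flanking regions lie to the left of the 5 kb limit and distant regions to the right. The first steps hold 1337 and 1287 regions and the third holds 680, and the steps on either side of the limit hold 286 and 291.

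For the same 9986 members, the gap differed little with the library whose peaks gave the edges, but it was shorter where single libraries defined the members. Measured from the peaks of H3K4me1 replicate 1, the median was 1756 bp to H3K27ac replicate 1 and 1814 bp to H3K27ac replicate 2. From the peaks of H3K4me1 replicate 2 it was 1648.5 bp and 1691 bp. Between 78 and 255 of the regions exceeded 5 kb in a given pair of libraries, because the merged edges lie further out than those of a single library. With H3K4me1 replicate 1 alone defining the members, the median gap was 784 and 748 bp over H3K27ac replicates 1 and 2 alone. With H3K4me1 replicate 2 alone it was 1215 and 1170 bp. Against both H3K27ac libraries merged, it was 981 bp without H3K4me1 replicate 2.

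Seen from the H3K27ac regions outward, H3K4me1 coverage fell off quickly. Up to the 5 kb limit flanking regions made up a growing part of it, which the rule largely sets. Of the bases within 250 bp of an H3K27ac edge, 0.695% lay in flanking regions and 40.7% in H3K4me1 regions that overlap kept H3K27ac. Between 500 and 1000 bp flanking regions covered 3.15% of bases, their highest share, and H3K4me1 regions on H3K27ac covered 9.89%. Flanking regions were 49.2% of the H3K4me1 bases between 1000 and 2000 bp and 80.5% between 4000 and 5000 bp. The low share in the first 250 bp follows in part from the rule, since H3K4me1 that reaches an H3K27ac peak is not a member. The high part further out follows from it too, since within 5 kb every kept H3K4me1 region without an H3K27ac peak is a member. Past the limit the part was 40.9% between 5000 and 6000 bp and 4.70% between 6000 and 7000 bp. Total H3K4me1 coverage was 2.23% between 5000 and 6000 bp and 1.97% between 9000 and 10000 bp. Both libraries declined over the same distances, replicate 1 to 1.65% and replicate 2 to 2.98% between 4000 and 5000 bp, against 25.9% and 42.8% within 250 bp.

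**Figure D2:**
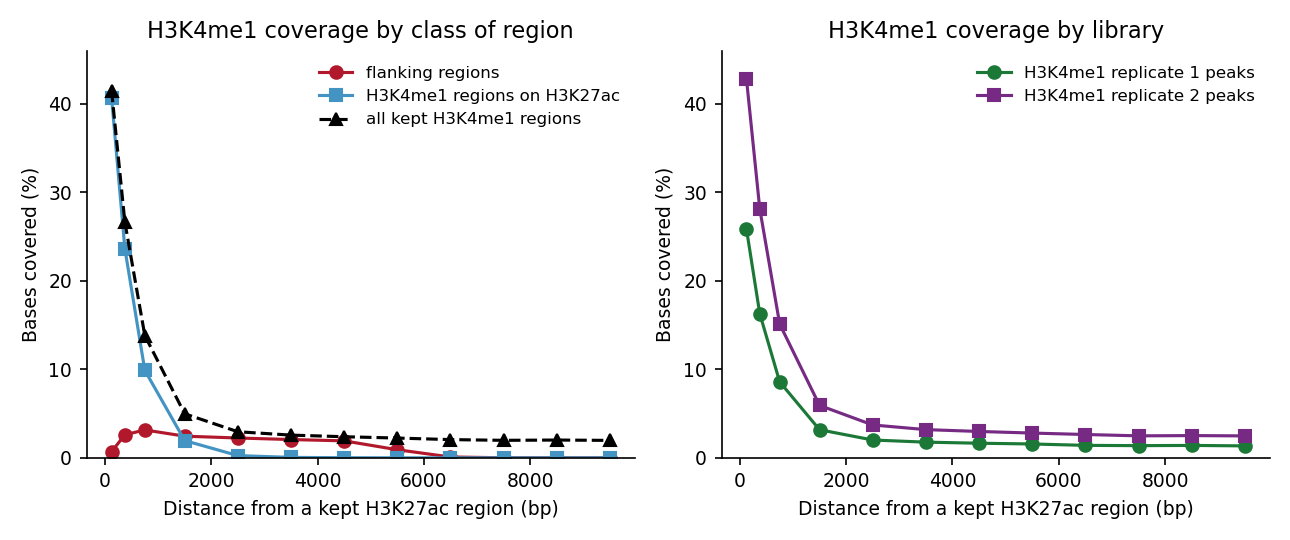
Percentage of bases in H3K4me1 regions against distance from the edge of the nearest kept H3K27ac region, by class of region and by library. Flanking regions cover 0.695% of bases next to H3K27ac and 3.15% between 500 and 1000 bp, and replicate 2 lies above replicate 1 at every distance.

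Only part of the members faced H3K27ac directly, so the name shoulder does not describe most of them. For 3326 of 9986 regions (33.3%, exact 95% interval 32.4 to 34.2%), no H3K4me1 peak of either library lay in the gap. For 5724 (57.3%), a kept H3K4me1 region reached into the gap, and for 936 (9.37%) a peak of 1 H3K4me1 library did. The members are therefore called flanking H3K4me1 regions here, and those with an empty gap direct. These positions and the comparisons built on them were chosen after the data had been seen. With H3K4me1 replicate 1 alone, 50.3% of flanking regions faced H3K27ac directly, and with replicate 2 alone 40.4% did.

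Direct regions lay close to H3K27ac and were slightly narrower than those behind another H3K4me1 region. Their median gap was 354 bp, and 1948 of 3326 (58.6%) lay under 500 bp from H3K27ac. Regions behind a kept H3K4me1 region had a median gap of 2125 bp, and 604 of 5724 (10.6%) lay under 500 bp. Another region in the gap takes up space, so part of this difference is fixed by construction. The median peak width of direct regions was 378.5 bp in replicate 1 and 579.5 bp in replicate 2. Behind a kept H3K4me1 region it was 411 bp in replicate 1 and 676.5 bp in replicate 2. All flanking regions under 500 bp from H3K27ac, of any position, had medians of 380 and 553 bp. Width thus varied with the gap, and whether it differs by position at a like gap was not tested. A peak of 1 H3K27ac library stood in the gap of 709 flanking regions (7.10%).

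Most flanking regions had another kept H3K4me1 region within 5 kb. An H3K4me1 region that overlaps H3K27ac lay within 1 kb of 2853 of them (28.6%) and within 5 kb of 7506 (75.2%). The rule places each member within 5 kb of a kept H3K27ac region. Of the 47128 kept H3K27ac regions 34623 carry a kept H3K4me1 region, so the share within 5 kb is largely set in advance. Another flanking region lay within 5 kb of 2336 (23.4%). No other kept H3K4me1 region of any class lay within 5 kb of 1653 (16.6%). The median distance to the nearest other kept H3K4me1 region was 1544 bp. No value of another class is set beside these.

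Over all positions in the gap, flanking regions lay nearest to H3K27ac where the H3K27ac region itself carried no H3K4me1, a contrast that did not hold within each position. The nearest H3K27ac region held no H3K4me1 peak for 1668 flanking regions (16.7%), a peak of 1 library for 919 (9.20%) and a kept H3K4me1 region for 7399 (74.1%). Of all 47128 kept H3K27ac regions, 7890 held no H3K4me1 peak, 4615 a peak of 1 library and 34623 a kept H3K4me1 region. The neighbours were thus mixed much as all kept H3K27ac regions are. The median gap was 574 bp beside H3K27ac without H3K4me1, against 1777 bp beside H3K27ac with a kept H3K4me1 region, a ratio of 0.323. Beside H3K27ac with an H3K4me1 peak of 1 library it was 1149 bp. Gaps under 500 bp made up 805 of 1668 (48.3%, exact 95% interval 45.8 to 50.7%) beside H3K27ac without H3K4me1, and 1487 of 7399 (20.1%, 19.19 to 21.03%) beside H3K27ac with a kept H3K4me1 region. Gaps under 100 bp made up 13.7% and 2.01% of the same groups. Peaks closer than the joining distance of a list are not separate in it, so H3K4me1 that runs off an H3K27ac region cannot be followed at once by a member.

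This contrast was present in each pair of single libraries and varied with the H3K4me1 library. With H3K4me1 replicate 1 alone the ratio of median gaps was 0.559 and 0.548, over H3K27ac replicates 1 and 2. With H3K4me1 replicate 2 alone it was 0.319 and 0.309. The median gaps beside H3K27ac without H3K4me1 ranged from 445 to 503.5 bp over the 4 pairs, against 883 to 1442 bp beside H3K27ac with H3K4me1, so the ranges did not overlap. Against both H3K27ac libraries merged, without H3K4me1 replicate 2 the ratio was 0.538.

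Within a position in the gap the contrast was small, absent or turned. The median gap was 326 bp for the 1304 direct regions beside H3K27ac without H3K4me1 and 393 bp for the 1564 direct regions beside H3K27ac with a kept H3K4me1 region. With a peak of 1 H3K4me1 library in the gap it was 2408 bp (197 regions) without H3K4me1 on the neighbour and 2415 bp (371 regions) with it. With a kept H3K4me1 region in the gap it was longer without H3K4me1 on the neighbour, at 2883 bp (167 regions) against 2077 bp (5464 regions). Measured for the direct regions in pairs of single libraries, the gap was 404.5 to 502 bp without H3K4me1, against 469 to 678.5 bp with it. These 2 ranges overlapped, although in each pair the gap was shorter without H3K4me1. The share of direct regions was 78.2% beside H3K27ac without H3K4me1 and 21.1% beside H3K27ac with a kept H3K4me1 region. This difference is largely fixed by the definition, since H3K4me1 that runs off the neighbour's edge lies in the gap and bars a direct region on that side.

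Fewer than 1 in 4 H3K27ac regions had flanking H3K4me1, and most of these had it on 1 side. Of 47128 kept H3K27ac regions, 10763 (22.8%, exact 95% interval 22.5 to 23.2%) had a flanking region within 5 kb. Of all H3K27ac regions, 9909 (21.03%) had flanking H3K4me1 on 1 side and 854 (1.81%) on both. The side of lower coordinates had it at 12.3% and the side of higher coordinates at 12.4%. A flanking region on the higher side was present at 14.8% (13.9 to 15.7%) of H3K27ac regions that had one on the lower side, and at 12.1% (11.7 to 12.4%) of those that had none there. These intervals cover counting over regions only, and neighbouring regions are not independent. With H3K4me1 replicate 1 alone the share of H3K27ac regions with a flanking region was 39.3%, and with replicate 2 alone 39.8%.

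Flanking regions close by were found at a larger share of the H3K27ac regions without H3K4me1 than of those with it. A flanking region was present within 5 kb of 1657 of the 7890 H3K27ac regions without an H3K4me1 peak (20.1 to 21.9%) and of 8138 of the 34623 with a kept H3K4me1 region (23.1 to 23.95%). The nearest one lay under 500 bp away at 772 of 7890 (9.78%, exact 95% interval 9.14 to 10.5%) without H3K4me1, and at 1470 of 34623 (4.25%, 4.04 to 4.46%) with it. Direct flanking regions were present at 1239 of the 7890 (15.7%) and at 1548 of the 34623 (4.47%). Direct regions on both sides stood at 65 H3K27ac regions without H3K4me1 (0.824%) and at 16 with a kept H3K4me1 region (0.0462%). Construction sets part of these differences, since H3K4me1 that runs past an H3K27ac edge bars a direct region there and, up to the joining distance, a close one. Flanking regions of any position stood on both sides of 1.60% of H3K27ac regions without H3K4me1 and of 1.91% of those with a kept H3K4me1 region. None of these counts holds H3K4me1 that overlaps the H3K27ac region and extends beyond it.

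Flanking regions were narrower than H3K4me1 regions on H3K27ac, and differed little in width from distant ones. For each region the widest peak of each library was taken. The median width of flanking peaks was 396 bp in replicate 1 and 636 bp in replicate 2, a mean of 516 ± 170 bp (SD, n = 2). Distant H3K4me1 peaks measured 417 bp in replicate 1 and 701 bp in replicate 2, with a mean of 559 ± 201 bp (SD, n = 2). The flanking median was thus lower in both libraries, with ratios of 0.9496 and 0.907, while the spread between libraries was larger than the difference. The rule acts on this width, since a wide region close to H3K27ac would overlap it and leave the flanking class. Merged flanking regions had a median of 614 bp at gaps under 250 bp and 754 bp between 4000 and 5000 bp, against 773 bp for distant regions. The part of the rule in the ratios was not tested. Both classes come from the same libraries, so the 4 medians are not independent, and the exact sign-flip test within libraries gave p = 0.5, the smallest that 2 libraries allow. An exact permutation test of the library medians (two-sided) gave p = 0.667, and this design with 2 libraries a class cannot go below 0.333. H3K4me1 peaks on H3K27ac had medians of 705 bp in replicate 1 and 1128 bp in replicate 2. The ratios of flanking to these were 0.562 and 0.564, a description only, since wide regions meet H3K27ac more easily and the rule thus acts on width.

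**Figure D3:**
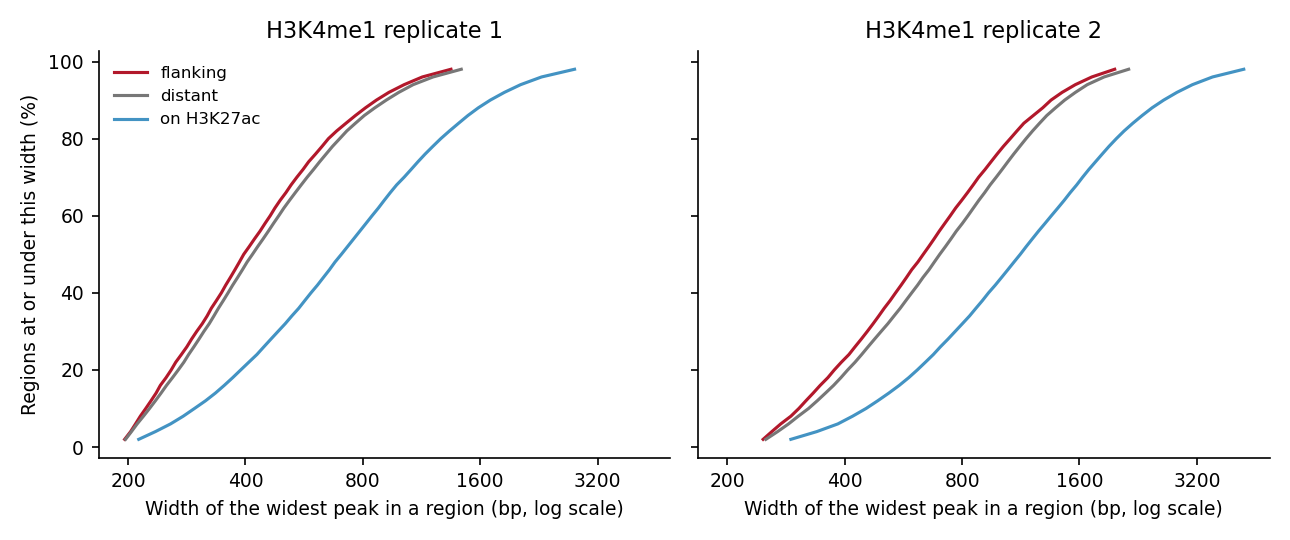
Cumulative share of regions against H3K4me1 peak width in bp on a log scale, for each H3K4me1 library, by class of region. In both panels the curves of flanking and distant regions lie close together, and the curve of regions on H3K27ac lies to the right, with medians of 705 and 1128 bp.

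Flanking regions closest to H3K27ac were the narrowest. The median width of the merged regions was 614 bp at gaps under 250 bp and 627 bp between 250 and 500 bp. It was 674 bp between 500 and 1000 bp, and 768 bp between 1000 and 2000 bp. From there to 5000 bp the medians were 754 to 767.5 bp, so the width no longer varied with the gap. The change over distance was larger in replicate 2, with 537 bp under 250 bp and 690 bp between 1000 and 2000 bp, against 380 and 400 bp in replicate 1. The rule acts on width here too, since a wider region close to H3K27ac would overlap it and leave the class, and its part in the result was not tested.

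H3K27ac peaks with flanking H3K4me1 had a median width slightly below that of peaks without, in both libraries. H3K27ac peaks with a flanking region had medians of 1114 bp in replicate 1 and 887 bp in replicate 2, a mean of 1000.5 ± 161 bp (SD, n = 2). Those without had medians of 1122 bp in replicate 1 and 897 bp in replicate 2, a mean of 1009.5 ± 159 bp (SD, n = 2). The ratio was 0.993 in replicate 1 and 0.989 in replicate 2, and that of the means 0.991. The same exact permutation test (two-sided) gave p = 0.667, and the exact sign-flip test within libraries gave p = 0.5, the smallest it allows with 2 libraries. The direction turned under 7 other settings of the lists, with ratios up to 1.13.

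The libraries placed the outlines of flanking regions differently, as they did those of the other classes. The replicate 2 peak was the wider one in 7975 of 9986 flanking regions (79.9%). It was so in 81.7% of distant regions and 84.5% of regions on H3K27ac. Both libraries shared 59.0% of the span of flanking regions, 61.2% of that of distant regions and 76.5% of that of regions on H3K27ac. Across the 9986 flanking regions Spearman's rho between the widths in both libraries was 0.491, against 0.504 across distant regions and 0.724 across regions on H3K27ac. These values run across regions of the same libraries, so they are descriptions. Replicate 1 split 916 flanking regions (9.17%) into several peaks, and replicate 2 split 89 (0.891%). The shares were 12.7% and 1.05% for distant regions, and 26.4% and 1.98% for regions on H3K27ac. By shared span and rho, flanking and distant regions thus shared their outlines between libraries to a like degree, and regions on H3K27ac more so.

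Flanking H3K4me1 found in the files of 1 replicate often had another class in the files of the other. From the replicate 1 lists of both marks alone, 25301 flanking peaks were found, and 11525 of them (45.6%, exact 95% interval 44.9 to 46.2%) overlapped a flanking peak of the replicate 2 lists. Of the rest, 7899 (31.2%) overlapped an H3K4me1 peak on H3K27ac in replicate 2, 1565 (6.19%) a distant one, and 4312 (17.0%) no H3K4me1 peak. From the replicate 2 lists alone, 25162 flanking peaks were found and 10688 (42.5%, 41.9 to 43.1%) overlapped a flanking peak of replicate 1. For 10998 (43.7%) replicate 1 had no H3K4me1 peak, and for 2148 (8.54%) it had one on H3K27ac. Distant peaks lacked an H3K4me1 peak in the other replicate in similar shares, 17.8% of those of replicate 1 and 42.8% of those of replicate 2. A missing H3K4me1 peak comes from the H3K4me1 lists alone. Both marks' lists change between the replicates, so a change to another class can come from either mark. The part of each mark in these changes was not tested.

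The share recovered was smaller for the flanking class than for the other classes, as a description of these lists. Unlike the other classes, the flanking class has a limit on both sides, at overlap with H3K27ac and at 5 kb. Peaks on H3K27ac were also wider, and wide peaks meet others more easily. The part of the limits and of width in the difference was not tested. Distant peaks of replicate 1 were distant again in 72.0% of cases and those of replicate 2 in 51.9%. Peaks on H3K27ac were so again in 88.6% and 76.7% of cases. In every class, peaks found as such again were wider than those without any H3K4me1 peak in the other replicate. For flanking peaks the medians were 381 bp against 260 bp from replicate 1 and 642 bp against 371 bp from replicate 2. For distant peaks they were 398 against 260 bp and 705 against 378 bp. For peaks on H3K27ac they were 672 against 274 bp and 1167 against 421.5 bp. The 9986 members were required to have a peak of each H3K4me1 library and none of H3K27ac, so they could leave the class in 1 replicate only by distance. In the replicate 1 files alone 9806 of them (98.2%) were flanking, and in the replicate 2 files 9868 (98.8%), with the remaining 180 and 118 over 5 kb from the H3K27ac peaks of that replicate. Keeping the peaks of either H3K4me1 library alone gave 20033 flanking regions from replicate 1 and 19757 from replicate 2.

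**Figure D4:**
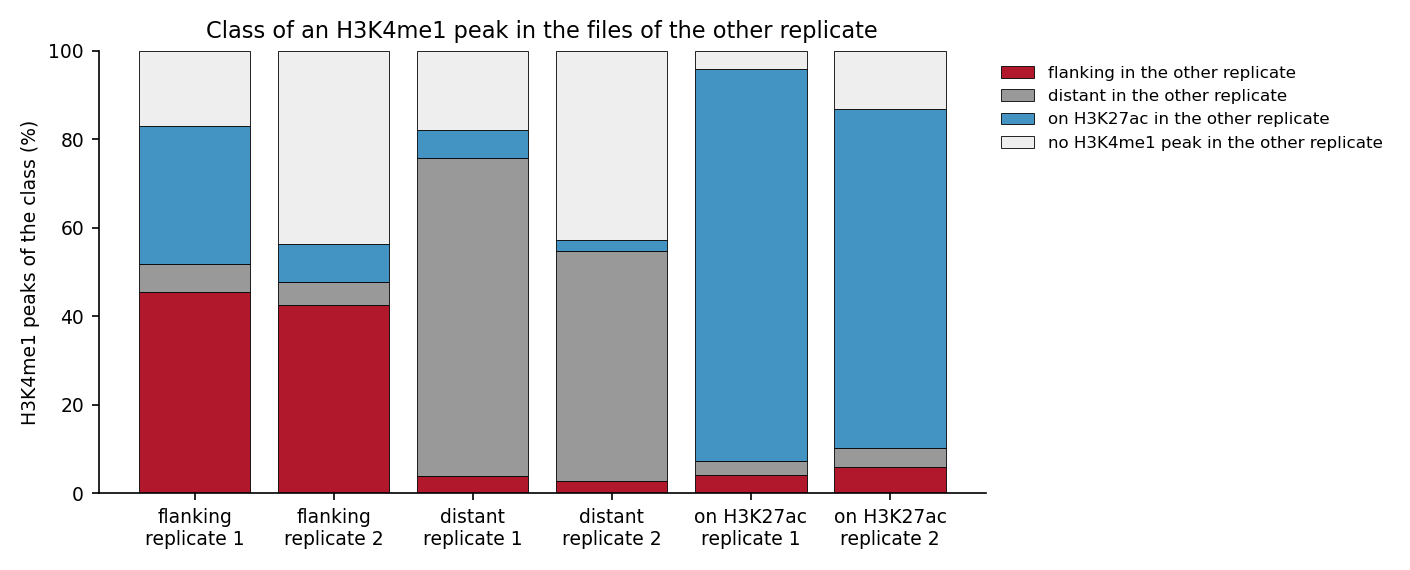
Percentage of flanking, distant and H3K27ac-overlapping H3K4me1 peaks of each replicate that fall in each class in the other replicate's files. Flanking peaks keep their class in 45.6% (replicate 1) and 42.5% (replicate 2) of cases, and 31.2% of those of replicate 1 lie on H3K27ac in replicate 2.

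Flanking regions were spread over all chromosomes, in numbers that followed H3K4me1 more closely than H3K27ac. This is in part set by the rule, since the members are themselves kept H3K4me1 regions. As a share of the kept H3K4me1 regions of a chromosome they ranged from 13.2% on chromosome 15 to 10.3% on chromosome 13, with a median of 11.9% over 23 chromosomes. Per 100 kept H3K27ac regions they ranged from 26.2 on chromosome 18 to 11.5 on chromosome X, a ratio of 2.28. Chromosomes 16 and 19 had 13.0 per 100 each and chromosome 22 had 17.1, below the median of 21.9. Chromosome X was lowest also with either H3K4me1 library alone, at 26.2 and 25.8 per 100. On chromosomes X, 16 and 19 H3K4me1 regions were few for the number of H3K27ac regions, with 1146 H3K4me1 and 1192 H3K27ac regions on X, 1530 and 1366 on 16, and 2130 and 1955 on 19. The cause of the spread was not tested.

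The state of the neighbour also varied by chromosome. The nearest H3K27ac region carried no H3K4me1 peak for 58 of the 177 flanking regions of chromosome 16 (32.8%) and for 44 of the 137 of chromosome X (32.1%). On chromosome 21 this was so for 8 of 180 (4.44%). The share of all kept H3K27ac regions without H3K4me1 is not given by chromosome, so whether these values only follow it was not tested. The median gap was 1950 bp on chromosome 21, the longest, and 921 bp on chromosome X, the shortest. Some of these chromosomes hold few flanking regions, which limits the precision of their values.

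**Figure D5:**
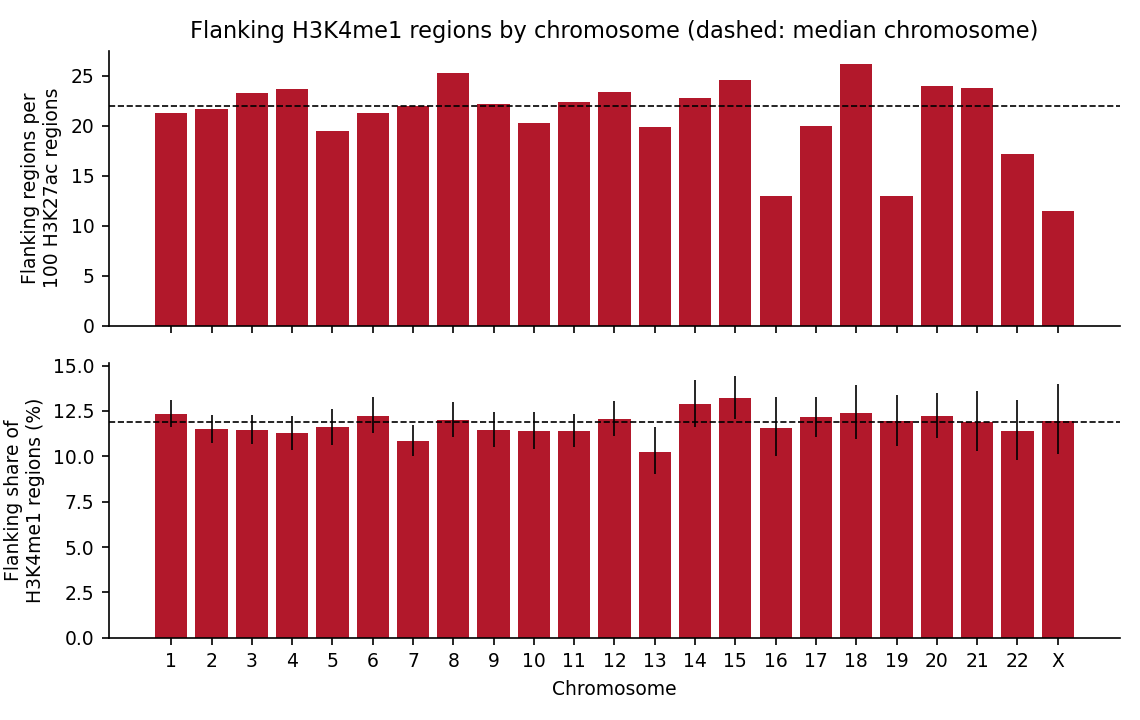
Flanking regions per 100 kept H3K27ac regions and as a percentage of kept H3K4me1 regions, by chromosome, with exact 95% intervals on the percentages and the median chromosome as a dashed line. The number per 100 H3K27ac regions runs from 26.2 on chromosome 18 to 11.5 on chromosome X, while the percentage stays between 13.2 and 10.3%.

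Most flanking regions stood alone in the order of H3K4me1 regions. Between the next kept H3K4me1 regions on either side, 7181 (71.9%) had no flanking neighbour. Since flanking regions were 11.8% of kept H3K4me1 regions, most would stand alone in a random order too. That most stood alone is therefore not a trait of the members. Whether the 71.9% and the runs that follow differ from a random order was not tested. There were 1145 runs of 2 consecutive flanking regions, 137 of 3, 21 of 4 and 4 of 5. The run ranked first had 5 flanking regions with 4798 bp between positions 39393982 and 39482578 of chromosome 5, in build hg19 counted from 1. The next stood on chromosome 3 between 189913548 and 189990584, on chromosome 15 between 68117153 and 68190598 and on chromosome 17 between 41918839 and 42008920, each with 5. The fifth, with 4 flanking regions and the largest summed length of runs of 4 (5677 bp), lay on chromosome 8 between 131032080 and 131105866. These runs span 73446 to 90082 bp and enclose 1 to 3 kept H3K27ac regions.

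The 5 widest flanking regions were wide mainly in replicate 2. The widest, chr12:96178819-96183380, measured 4562 bp, with a peak of 4562 bp in replicate 2 and of 1125 bp in replicate 1. It ended 3 bp from an H3K27ac region of 1822 bp without H3K4me1. The next were chr18:45681279-45685515 (4215 bp in replicate 2 and 1581 bp in replicate 1), chr17:74539665-74543850 (3919 and 1758 bp) and chr20:32425473-32429629 (4157 and 1991 bp). The fifth, chr6:19863859-19867896, was the exception, with 4002 bp in replicate 2 and 3980 bp in replicate 1. Their gaps were 2116, 3020, 1753 and 3106 bp, and the H3K27ac neighbours of the last 3 carried a kept H3K4me1 region. No gene is given for any region, since the gene table at hand belongs to another build.

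The largest number of flanking regions at 1 H3K27ac region was 4, reached by 18 H3K27ac regions, of which the one with the longest summed length had them on both sides. It was chr3:54388183-54388854, with 2 flanking regions on each side and 6545 bp in all. The nearest, chr3:54386465-54388018, stood 164 bp away and the farthest, chr3:54392386-54395139, stood 3531 bp away. The 4 next in rank also had 4 flanking regions each, with 3856 to 5104 bp in all, at chr1:223899782-223901332, chr1:120321717-120323788, chr17:25574132-25574462 and chr1:94138170-94138696. Among H3K27ac regions without any H3K4me1 peak and with flanking regions on both sides, chr9:113799839-113800759 ranked first, with 4246 bp. It had 1 region of 1497 bp on the lower side, 114 bp away, and 2 of 1508 and 1241 bp on the upper side, 899 and 2878 bp away. The second, chr4:147163317-147163844, had flanking H3K4me1 337 bp away on the lower side and 301 bp away on the upper. The others were chr17:74067555-74069353, chr5:40678267-40680740 and chr9:93563442-93564969, with 3400 to 3769 bp of flanking H3K4me1.

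The 2 flanking regions nearest inside the 5 kb limit, chr1:154708963-154709768 and chr7:3334148-3334890, had gaps of 4999 bp and widths of 806 and 743 bp. The 2 regions nearest outside, chr5:114591593-114592508 and chr7:100086817-100087861, had gaps of 5001 bp and widths of 916 and 1045 bp. In each pair 1 H3K27ac neighbour carried a kept H3K4me1 region and the other none.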

How the data were processed

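For each immunoprecipitated library the authors deposited its own peak list, in 4 columns for chromosome, start, end and peak name. The values used are positions in bp, with no peak height. Build hg19 (GRCh37) is named in the submitters' processing notes, which also list MACS2 2.1.0, Bowtie 1.1.2, Trimmomatic 0.33 and bcl2fastq 2.17. How each was used, with which peak threshold and control, is not given in the sources used here. Each list has its own smallest peak width and joining distance, from 172 and 173 bp in the second H3K27ac list to 232 and 233 bp in the second H3K4me1 list. These set how short a gap and how narrow a peak can be seen.

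Overlap meant 1 bp or more, and distance ran from edge to edge. Computation used Python 3.11.15 with numpy 2.4.6, pandas 2.3.3 and scipy 1.17.1, and the figures used matplotlib 3.10.9. The counting code was tested on simulated lists. Each library gave 1 median per class for the exact two-sided permutation tests. Shares carry exact (Clopper-Pearson) 95% binomial intervals, which cover counting over regions only. Depth is unknown. The members, comparisons and lists were chosen with earlier results of these data known. The regions named are the 5 widest members, the 5 H3K27ac regions with the most members (ties by summed length), the 5 without H3K4me1 and with members on both sides by summed length, the 5 longest runs, and the 2 regions on either side of the limit. Gaps by neighbour, positions in the gap, classes other than flanking in the recovery and steps of distance were added after seeing the data. No sequence and no gene was read, since no genome or annotation of build hg19 was used here. Alternatives covered the distance limit, the region definition, the overlap, narrow peaks, joining and each library left out.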

Additional observations from a re-analysis of the deposited data

Results flagged for a closer look

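The members were taken from the autosomes and chromosome X, and chromosome Y lies outside them. By the same rule 13 of the 215 kept H3K4me1 regions of chromosome Y (6.05%) were flanking, beside 185 kept H3K27ac regions. This number was singled out because it lies in data the comparisons do not use and is above the 3 regions that a count of 0 allows.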

How the results depend on the processing

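Over 12 results and 120 alternatives, 7 values turned direction and 57 moved by more than the spread between pairs of libraries (counts by more than 1.5 times). Of the other 56, those of the 2 tested width ratios kept their direction, in part with moves beyond that spread. The rest stayed within it (counts within 1.5 times). For the recovery results the spread was instead that between the recovery of replicate 1 and that of replicate 2. The cause was not tested. The 7 were all the H3K27ac width ratio, with over without flanking H3K4me1 (0.991 as reported). It was 1.00 at a limit of 2.5 kb, 1.08 with H3K4me1 peaks of either library, 1.13 with H3K4me1 peaks joined under 1 kb and 1.01 without peaks under 300 bp. With a library left out it ran between 0.931 and 1.07.

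At 2.5 kb there were 6577 flanking regions with a median gap of 742 bp, at 14.7% of H3K27ac regions, 42.1% of them direct. The highest chromosome over the lowest was then 2.20 per H3K27ac region and 1.38 as a share of H3K4me1. At 10 kb the gap was 2998.5 bp, the H3K27ac share 35.1%, the direct share 27.6%, the gap ratio by neighbour 0.602 and the chromosome ratio 2.499 per H3K27ac region. Where only kept H3K27ac regions barred a member, the H3K27ac share was 28.0% and the chromosome ratios 2.39 and 1.25.

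With H3K4me1 peaks of either library there were 22835 regions at 43.8% of H3K27ac regions, a width ratio to regions on H3K27ac of 0.491, and chromosome ratios of 1.88 and 1.31. With H3K4me1 peaks joined under 1 kb there were 5916 regions with a gap of 2427.5 bp, at 14.1% of H3K27ac regions and 42.4% direct. That setting gave a width ratio of 0.384, a gap ratio of 0.146 and a chromosome ratio of 1.35 by share of H3K4me1. Without peaks under 300 bp the H3K27ac share was 18.5%, the width ratio 0.638 and the chromosome ratios 2.69 and 1.35. With a common smallest width and joining distance of 232 and 233 bp, the H3K27ac share was 21.3% and the chromosome ratio 2.79 per H3K27ac region. Recovery was then 50.8% of replicate 1 and 37.8% of replicate 2, and with overlaps of 50% of the shorter region 42.8% and 40.05%.

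With each library left out in turn, the number of flanking regions ran between 12882 and 20033, the gap between 981 and 1404 bp, the H3K27ac share between 25.7 and 39.8% and the direct share between 33.2 and 50.3%. The gap ratio ran between 0.278 and 0.538, the width ratio to regions on H3K27ac between 0.476 and 0.578; to distant regions it was below 1 with each library left out, and 0.874 at its lowest under another setting, with H3K4me1 peaks joined under 1 kb. The chromosome ratios ran between 1.93 and 2.16 per H3K27ac region and between 1.21 and 1.31 by share of H3K4me1.

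The labels do not say whether replicate numbers pair the libraries of the marks. The correlation of deviations was -0.0527 over 22951 windows of 100 kb. It cannot decide this, since different marks need not deviate together even in the same cells. With the replicate number as a block the width ratio was 0.928 to distant regions and 0.991 for H3K27ac, each with an exact sign-flip p of 0.5, the smallest that 2 pairs allow. With crossed numbers the recovery of H3K4me1 replicate 1 was 43.2%. Unknown depth and the smallest width of each list limit how many narrow flanking regions could be seen.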

Other observations

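For the 2624 regions with a gap under 500 bp, the replicate 2 peak reached a median of 69 bp further than the replicate 1 peak on the side away from H3K27ac and 35 bp further on the side facing it. For the 7362 regions with longer gaps it reached 66 bp further on both sides. The rule bars overlap with H3K27ac, so a near region that reached much further inward in either library would not be a member.

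The share of H3K27ac regions with flanking H3K4me1 varied little with their spacing and width. It was 19.9% where the next H3K27ac region lay under 1000 bp away, 24.9% at 5000 to 20000 bp, and 23.8% over 50000 bp. In 5 width classes of nearly equal size it was 24.0, 22.8, 20.9, 21.7 and 24.8%, from the narrowest to the widest, with the lowest share in the middle class. Of the flanking regions, 1006 (10.1%) lay within 5 kb of H3K27ac on both sides, and their median H3K4me1 peak widths were 403 bp in replicate 1 and 644 bp in replicate 2. Those with H3K27ac on 1 side had 396 and 635.5 bp.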
